A study of Mus musculus with 8 samples.

Results

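The mitochondrial carriers are the family of membrane proteins that move metabolites, nucleotides, cofactors and ions across the inner mitochondrial membrane. The members examined were every protein-coding gene with a log2 fold change whose symbol begins Slc25a followed by a digit, together with Ucp1, Ucp2 and Ucp3, the uncoupling proteins of the same family. This gave 50 genes of 31616 with a log2 fold change. RNA sequencing was done on brain microvessels of wild-type C57BL6 mice, with 4 sham libraries and 4 libraries after tMCAO, transient middle cerebral artery occlusion, a stroke model in which a brain artery is blocked and then reopened. Both groups share genotype and strain. Age, sex, occlusion time, time after reopening and any pooling of animals are not given in the sources read. Whether each library stands for its own mouse is not stated either, so the p-values may reflect technical spread only.

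Each carrier is built of a repeated unit that pairs membrane-spanning helices, and it alternates between a state open to the cytosol and a state open to the matrix, usually swapping a substrate for another. The ADP/ATP and phosphate carriers feed ATP synthesis, the aspartate/glutamate carriers pass reducing equivalents into the matrix, and the uncoupling proteins are known, with different strength of evidence, for letting protons or anions leak across the membrane. Brain endothelium, neurons and glia all contain mitochondria, and several carriers are known to be made mainly in particular cell types.

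Each gene had a single log2 fold change and a single p-value from the authors for the whole comparison, so levels per library, their spread and the sequencing depth were not analysed here. The column header names no numerator, and a positive sign was taken to mean higher in the tMCAO libraries because acute injury genes carried large positive values. A deposited p was read as Benjamini-Hochberg adjusted and a gene was called at an adjusted p under 0.05. The errors given are implied standard errors, recovered from the p-values assuming normally distributed estimates that were not shrunken, and each interval is a 95% interval built from them. A value written as a log2 change ± an error gives the deposited log2 fold change with this implied standard error. In bulk tissue, fewer cells of a type and less RNA per cell cannot be told apart.

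A p-value was deposited for 45 of the 50 carriers, and 17 of them passed, 7 higher and 10 lower after tMCAO. The background was 32.8% of 19294 genes with a p (15.2% higher and 17.6% lower) and 38.4% of 15316 protein-coding genes (18.4% higher and 20% lower). The carriers' share was 37.8%, 15.6% higher and 22.2% lower, near the background of protein-coding genes. Among the other protein-coding Slc genes, which encode transporters of other families, 104 of 258 with a p passed (40.3%), 34 higher (13.2%) and 70 lower (27.1%). The median log2 fold change was -0.02 over the carriers, 0.05 over protein-coding genes and -0.0008 over all genes with a p. Changes were small within the family: 1 of the 45 carriers, Ucp3, reached an absolute log2 fold change of 1 by the authors' deposited table, against 11.2% of protein-coding genes. The header of the p column does not say that it is adjusted. Taken as unadjusted and then adjusted over all genes, 3 carriers were higher and 6 lower, and 22.4% of all genes passed. Centred on the median of protein-coding genes, the split was 5 higher and 12 lower.

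For the 5 carriers without a p no test result was available, and why the p is missing is not stated. How many reads their values rest on is unknown. These 5 carriers had log2 changes from -0.56 to 0.51 by the authors' deposited table. They were Slc25a31, the ADP/ATP carrier known from testis, Slc25a41, Slc25a48, Slc25a54 and Ucp1, the thermogenic protein of brown fat.

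**Figure D1:**
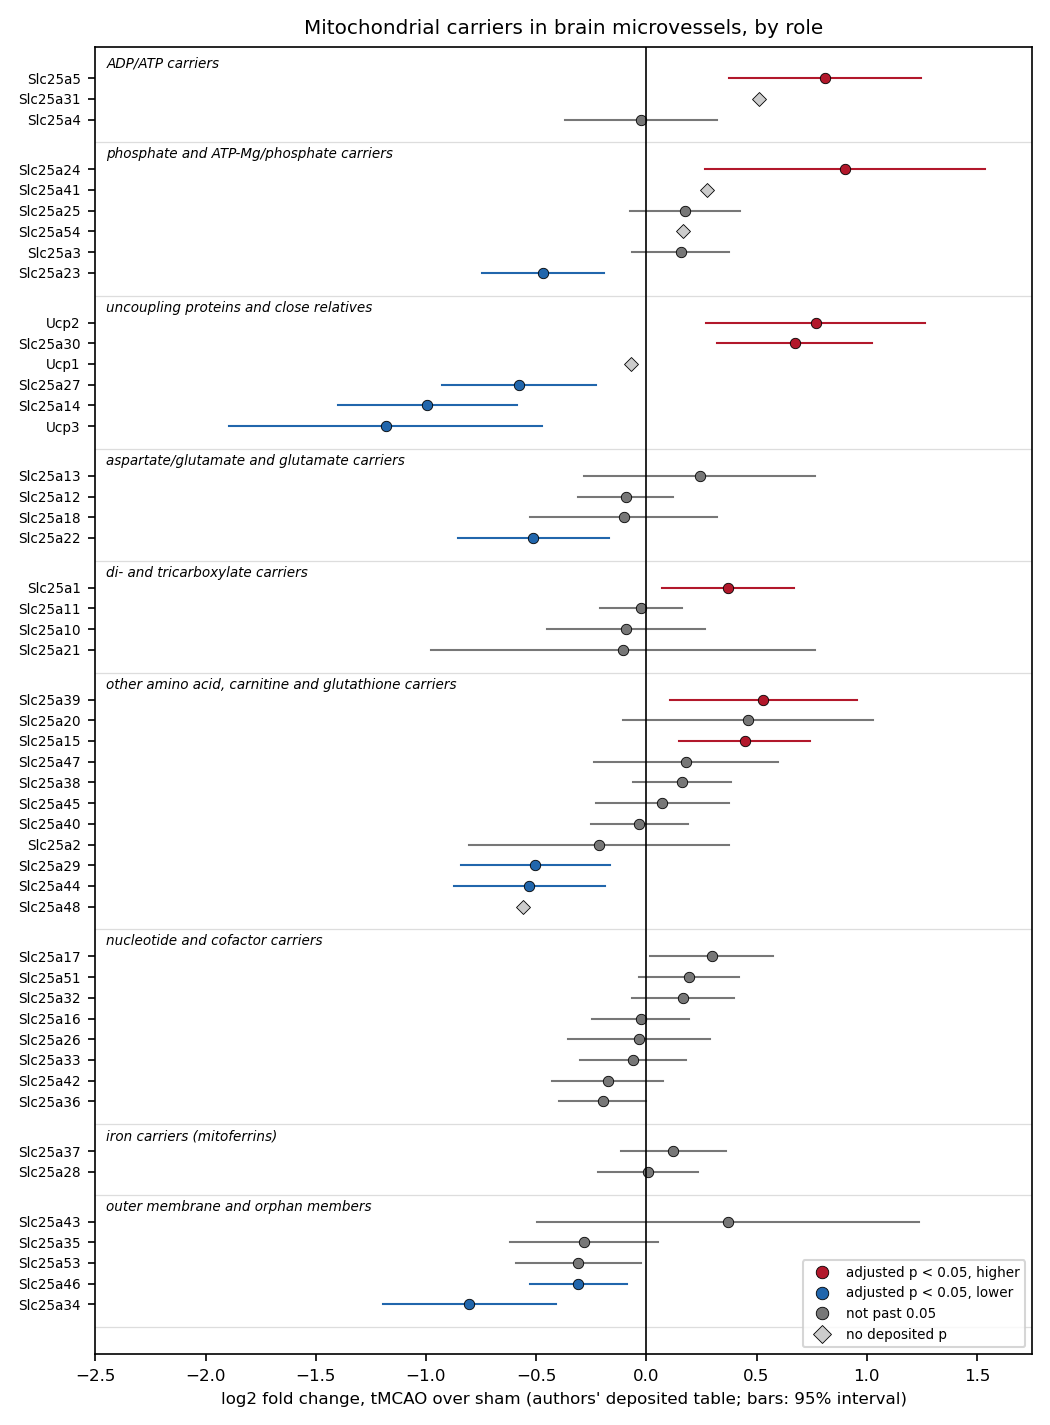
The log2 fold change of the carriers (horizontal axis, tMCAO over sham) is plotted by role, leaving out a carrier not reported here, with bars for the 95% interval; red and blue points passed an adjusted p of 0.05, grey points did not, and grey diamonds have no deposited p. The higher and lower carriers shown are spread over most roles, and the group of uncoupling proteins has members on both sides of 0.

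Promoter sequences are shown for carriers that differed with a small adjusted p and have a single annotated start, and for Ucp2, because it and its neighbour Ucp3 differed in opposite directions. Each runs 5′ to 3′ on the gene's strand from 250 bases before to 50 bases after the start, from RefSeq on GRCm38.p6; capitals mark the GC box (GGGCGG) and the CCAAT box (CCAAT), searched on both strands. The first 2, Slc25a30 (chr14:75786988-75787287, minus strand) and Slc25a5 (chrX:36795347-36795646, plus strand), belong to higher genes, as does Ucp2 (chr7:100493108-100493407, plus strand). Slc25a34 (chr4:141623785-141624084, minus strand) and Ucp3 (chr7:100472741-100473040, plus strand) were lower.
Slc25a30: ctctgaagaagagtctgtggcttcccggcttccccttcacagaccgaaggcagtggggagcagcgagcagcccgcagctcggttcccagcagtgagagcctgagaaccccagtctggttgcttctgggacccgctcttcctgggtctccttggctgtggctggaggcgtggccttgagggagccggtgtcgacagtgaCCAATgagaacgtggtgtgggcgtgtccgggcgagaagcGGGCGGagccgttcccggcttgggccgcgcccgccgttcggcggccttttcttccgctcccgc
Slc25a5: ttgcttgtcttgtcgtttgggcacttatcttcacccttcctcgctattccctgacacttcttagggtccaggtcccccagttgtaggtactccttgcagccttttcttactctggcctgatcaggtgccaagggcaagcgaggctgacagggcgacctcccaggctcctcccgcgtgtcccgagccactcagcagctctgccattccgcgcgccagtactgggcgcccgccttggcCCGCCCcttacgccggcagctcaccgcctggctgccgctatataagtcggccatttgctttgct
Ucp2: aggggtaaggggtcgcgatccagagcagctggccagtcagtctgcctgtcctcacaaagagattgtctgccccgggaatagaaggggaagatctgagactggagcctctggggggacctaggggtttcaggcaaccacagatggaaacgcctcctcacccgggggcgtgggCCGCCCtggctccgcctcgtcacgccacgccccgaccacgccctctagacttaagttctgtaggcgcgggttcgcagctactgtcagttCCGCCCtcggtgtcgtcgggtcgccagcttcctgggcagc
Slc25a34: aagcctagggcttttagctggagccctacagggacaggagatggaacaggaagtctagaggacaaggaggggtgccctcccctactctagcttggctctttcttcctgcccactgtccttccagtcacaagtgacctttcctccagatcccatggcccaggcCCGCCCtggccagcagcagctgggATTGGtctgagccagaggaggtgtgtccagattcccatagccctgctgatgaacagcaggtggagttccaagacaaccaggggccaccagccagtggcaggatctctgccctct
Ucp3: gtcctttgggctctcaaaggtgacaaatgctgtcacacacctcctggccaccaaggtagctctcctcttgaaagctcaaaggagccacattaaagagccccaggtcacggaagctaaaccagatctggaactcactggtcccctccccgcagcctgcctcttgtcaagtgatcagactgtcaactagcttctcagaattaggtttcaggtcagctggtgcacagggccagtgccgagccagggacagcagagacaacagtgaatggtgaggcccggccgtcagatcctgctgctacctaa

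The Ucp3 window held neither motif and had 55% G and C, the lowest of the 5, while that of Slc25a30 had the highest, 66.7%. RefSeq promoters were matched for 39 of the 50 carriers, with 49 starts among them. A GC box lay in 39 of these 49 windows (79.6%), against 46.2% of 21263 windows of protein-coding genes and 35.7% of all 32851 windows. It was present in 8 of 8 windows of higher carriers and in 10 of 11 of lower carriers. These windows came from 7 higher carriers and from 6 of the 10 lower carriers, so some carriers count more than once. The E-box (CACGTG) was found in 8 of 49 windows (16.3%), against 7.84% for protein-coding genes, and in 2 of 8 windows of higher and 2 of 11 of lower carriers. The CCAAT box was in 22 of 49 windows (44.9%, against 38.2%). Matches to the NRF1 element, the CRE (TGACGTCA) and the AP-1 site (TGANTCA) were each in 2 of 49 windows (4.08%). Among windows of protein-coding genes their shares were 6.38%, 2.23% and 6.99%. The ERR element (TCAAGGTCA) was in 0 of 49, against 0.33% of windows of protein-coding genes. Both directions thus included windows with a GC box and windows with an E-box.

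The ADP/ATP carriers exchange cytosolic ADP for matrix ATP. Slc25a5, which encodes the isoform ANT2 known from many dividing and non-muscle cells, was 1.76-fold higher in tMCAO libraries by the authors' deposited table (log2 change 0.81 ± 0.22, adjusted p = 0.0018). Slc25a4, the ANT1 isoform of heart, muscle and brain, had a log2 change of -0.02 with an interval from -0.37 to 0.32 and an adjusted p of 0.93 by the authors' deposited table. The 2 isoforms' intervals did not overlap, and the difference between them was not tested. Slc25a5 has processed copies in the genome, of which Slc25a5-ps had a log2 change of 0.03 and no p by the authors' deposited table, so how the authors' counting treated shared reads limits this value.

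Phosphate reaches the matrix through Slc25a3, the phosphate carrier needed for ATP synthesis, whose log2 fold change was 0.16 (interval -0.06 to 0.37, adjusted p = 0.29) by the authors' deposited table. The calcium-regulated ATP-Mg/phosphate carriers, which adjust the adenine nucleotide pool of the matrix, went separate ways. Slc25a24 was 1.87-fold higher by the authors' deposited table (log2 change 0.90 ± 0.32, adjusted p = 0.02), the largest positive value of the 45 carriers with a p. Slc25a23 was 1.38-fold lower by the authors' deposited table (log2 change -0.47 ± 0.14, adjusted p = 0.005). Slc25a25 lay between them at 0.18 (interval -0.07 to 0.43, adjusted p = 0.3) by the authors' deposited table.

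The uncoupling proteins and their close relatives were the role group in which every member with a p passed, 2 higher and 3 lower. This is a small group of 5 genes with a p, set beside 38.4% of protein-coding genes called. Ucp2 did not pass at an adjusted p of 0.01. With the Benjamini-Yekutieli adjustment Ucp2, Ucp3 and Slc25a27 did not pass. Ucp2, a broadly made member known from immune cells and tied to control of reactive oxygen, was 1.70-fold higher by the authors' deposited table (log2 change 0.77 ± 0.25, adjusted p = 0.011). Ucp3, best known from skeletal muscle and brown fat, was 2.27-fold lower by the authors' deposited table (log2 change -1.18 ± 0.36, adjusted p = 0.0059). It had the largest fall of the family and a wide interval, from -1.89 to -0.47. These 2 genes lie on chromosome 7 on the same strand with 6904 bases between them, Ucp3 from 100472990 to 100486432 and Ucp2 from 100493337 to 100502020 in GENCODE M21 on GRCm38.

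Slc25a14, also called UCP5 or BMCP1 and known from brain, was 1.99-fold lower by the authors' deposited table (log2 change -0.99 ± 0.21), with the smallest adjusted p of the family, 3.61e-05. Slc25a27, or UCP4, a carrier known mainly from neurons, was 1.49-fold lower by the authors' deposited table (log2 change -0.58 ± 0.18, adjusted p = 0.0061). Slc25a30, or KMCP1, the closest relative of Slc25a14 by coding sequence, was 1.59-fold higher by the authors' deposited table (log2 change 0.67 ± 0.18, adjusted p = 0.0014). Of the neuron markers, 15 of 15 were lower, from -1.74 to -0.52 with a median of -1.22. Their part in the falls of Slc25a14 and Slc25a27 was not tested. Microglia markers were lower in 7 of 10 (median -1.0), oligodendrocyte markers in 6 of 10 (median -0.60) and endothelial markers higher in 9 of 15 (median 0.73). Mural cell markers were higher in 2 of 11 (18.2%) and lower in 0 (median 0.21). Across protein-coding genes 18.4% were higher and 20% lower, so the share of mural markers called higher was near that background. With no levels per library, the microvessel label itself could not be checked against its markers. Neutrophil markers were higher in 7 of 10 with a p (median 2.40) and monocyte and macrophage markers in 5 of 11 (median 0.91); their part in the rise of Ucp2 was not tested.

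Carriers of glutamate and aspartate were mostly not called. Slc25a22, a glutamate carrier whose human form is linked to early epilepsy, was 1.43-fold lower by the authors' deposited table (log2 change -0.51 ± 0.17, adjusted p = 0.014). Slc25a18, the glutamate carrier known from astrocytes, had a log2 change of -0.10 (interval -0.53 to 0.32) by the authors' deposited table. Astrocyte markers had a median of -0.04, with 1 of 10 higher and 2 lower, beside 18.4% and 20% of protein-coding genes. Slc25a12 (aralar) and Slc25a13 (citrin), the aspartate/glutamate carriers of the malate-aspartate shuttle, had log2 changes of -0.09 (adjusted p = 0.54) and 0.24 (adjusted p = 0.52) by the authors' deposited table. The interval of Slc25a12, from -0.31 to 0.12, was the narrower of the pair, and that of Slc25a13 ran from -0.28 to 0.77.

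Of the carriers of di- and tricarboxylates, Slc25a1, which exports citrate for lipid synthesis, was 1.29-fold higher by the authors' deposited table, with an adjusted p of 0.047 that lay just inside the threshold. Slc25a11, the oxoglutarate carrier and the other limb of the malate-aspartate shuttle, had a log2 change of -0.02 and the narrowest interval of the family, -0.21 to 0.16, by the authors' deposited table. Slc25a10, the dicarboxylate carrier, stood at -0.09 and Slc25a21, the oxodicarboxylate carrier, at -0.11 by the authors' deposited table, and the wide interval of Slc25a21, from -0.98 to 0.77, leaves room for a change of either sign up to about those sizes.

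Among the other amino acid, carnitine and glutathione carriers, 2 of 10 with a p were higher and 2 lower. The share called, 40%, was near the 38.4% of protein-coding genes called. Slc25a15, the ornithine carrier of the urea cycle, was 1.36-fold higher by the authors' deposited table (log2 change 0.45 ± 0.15, adjusted p = 0.013). Slc25a39, which imports glutathione, was 1.44-fold higher by the authors' deposited table, with an adjusted p of 0.045. Slc25a44, a branched-chain amino acid carrier, was 1.44-fold lower and Slc25a29, a carrier of basic amino acids, 1.42-fold lower by the authors' deposited table, with adjusted p-values of 0.011 and 0.015. Slc25a20, which brings acylcarnitines in for fatty acid oxidation, had a log2 change of 0.46 that did not pass (interval -0.10 to 1.03, adjusted p = 0.22) by the authors' deposited table. The remaining 5, Slc25a2, Slc25a38, Slc25a40, Slc25a45 and Slc25a47, lay between -0.21 and 0.18 by the authors' deposited table and did not pass; Slc25a38 is the glycine carrier of heme synthesis.

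Of the nucleotide and cofactor carriers described here, none passed, and a further member of this role group is not reported here. Those described ranged from -0.20 for Slc25a36, a pyrimidine nucleotide carrier, to 0.30 for Slc25a17, a peroxisomal carrier, by the authors' deposited table. Slc25a51, the NAD carrier, stood at 0.19 with an adjusted p of 0.19 by the authors' deposited table. Slc25a32, which carries folate and flavin, was at 0.17, Slc25a42, a coenzyme A carrier, at -0.18, Slc25a26, the S-adenosylmethionine carrier, at -0.03, Slc25a33 at -0.06 and Slc25a16 at -0.02 by the authors' deposited table.

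The mitoferrins bring iron into the matrix for heme and iron-sulfur cluster synthesis. Slc25a37 (mitoferrin-1) had a log2 change of 0.12 and an interval from -0.12 to 0.36 by the authors' deposited table. Slc25a28 (mitoferrin-2) stood at 0.01 with an interval from -0.22 to 0.23 by the authors' deposited table. Neither passed, and both were among the 18 of 28 carriers not called whose interval stayed within 0.5 of 0.

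Of the outer membrane and orphan members, a small group, 2 of 5 were lower (40%). Across protein-coding genes, 38.4% were called in either direction and 20% were lower. Slc25a34, whose substrate is not settled, was 1.74-fold lower by the authors' deposited table (log2 change -0.80 ± 0.20, adjusted p = 0.00056). Slc25a46, an outer membrane protein tied to mitochondrial fusion and fission, was 1.24-fold lower by the authors' deposited table (log2 change -0.31 ± 0.11, adjusted p = 0.022). Slc25a53 had nearly the same log2 fold change, -0.31, but an adjusted p of 0.085 by the authors' deposited table, which placed it first outside the threshold. Slc25a35 at -0.28 and Slc25a43 at 0.37 did not pass by the authors' deposited table, and Slc25a43 had an interval from -0.50 to 1.24.

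The values of closely related carriers were set side by side. Each carrier was paired with its closest relative by the identity of the longest coding sequences in GENCODE M21, keeping pairs that were each other's closest at 50% identity or more. This gave 14 pairs, 11 of them with a p for both genes. In 2 pairs a gene was higher and its partner lower, Ucp2 with Ucp3 (74.2% identity) and Slc25a30 with Slc25a14 (63.9%), with log2 fold changes 1.95 and 1.67 apart. In 4 pairs a gene was higher and its partner not called, in 2 a gene was lower and its partner not called, and in 3 neither was called. No pair had both genes called the same way. With 15.6% of carriers higher and 22.2% lower, few of 11 pairs would have both genes called in any case. These counts cannot show whether close relatives tend to differ in direction. A called gene and a partner not called can still have like values: Slc25a1 and Slc25a17, with a call for the first alone, were 0.07 apart. The most alike pair was Slc25a5 with Slc25a4, at 77.4%. The differences within pairs were not tested, since the spread of a difference needs values per library. The longest exact run shared by the representative transcripts of a pair was 10 to 25 bases.

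**Figure D2:**
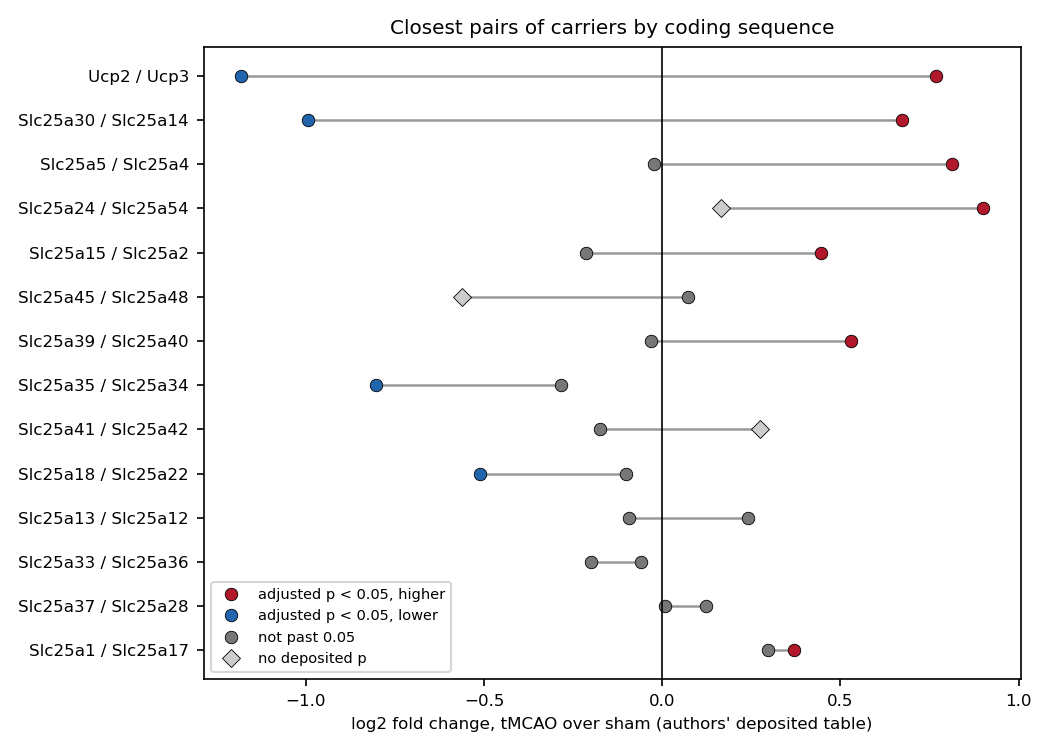
The log2 fold change (horizontal axis, tMCAO over sham) of both genes of each of the 14 closest pairs by coding sequence is joined by a line; red points are higher, blue lower, grey not past 0.05, and diamonds have no deposited p. The pairs at the top, Ucp2 with Ucp3 and Slc25a30 with Slc25a14, lie on opposite sides of 0.

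Carriers also lie next to one another in the genome. In 5 cases, counting gaps under 50 kb, a carrier had another as its neighbour in the family: Ucp3 and Ucp2, Slc25a54 and Slc25a24 on chromosome 3, Slc25a41 and Slc25a23 on chromosome 17, Slc25a29 and Slc25a47 on chromosome 12 and Slc25a43 and Slc25a5 on the X chromosome. Slc25a29 and Slc25a47 point away from each other with 162 bases between them; the first was lower and the second, at 0.18, was not called (adjusted p = 0.56) by the authors' deposited table. Of the 17 called carriers, 3 overlap a protein-coding gene on the opposite strand (Slc25a23 with Crb3, Ucp2 with Dnajb13 and Slc25a46 with B930094E09Rik), and 0 of these partners were called. Among carriers not called, 4 overlap an opposite-strand coding gene that was called: Slc25a53 with Zcchc18, lower at -0.95, Slc25a11 with Rnf167, lower at -0.41, Slc25a35 with Rangrf, higher at 0.57, and Slc25a26 with Lrig1, higher at 0.60 by the authors' deposited table. Slc25a25 with Naif1 and Slc25a18 with Atp6v1e1 had such a partner that was not called, and the coding partners of Slc25a2 and Slc25a21 had no p. Across protein-coding genes 38.4% were called, and so few overlaps allow no comparison of called carriers with the others. Whether counting used strand is not stated, so reads of such partners cannot be told apart.

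Genes that work beside the carriers were described from 8 lists. Counting each gene once, 17 of 82 with a p were higher (20.7%) and 8 lower (9.76%), with a median log2 fold change of 0.13; centred on the median of protein-coding genes the split was 10 higher and 11 lower. The share called in either direction was 30.5%, below the 38.4% of protein-coding genes, and in 5 of the 8 lists it was also below that background. The exceptions were the calcium uniporter list (4 of 7), the malate-aspartate shuttle (2 of 4) and the biogenesis regulators (5 of 11), which are short lists. The regulators of mitochondrial biogenesis moved both ways. Ppargc1a, the coactivator PGC-1α, was 1.67-fold lower (log2 change -0.74 ± 0.16, adjusted p = 5.54e-05) and its relative Ppargc1b 1.5-fold lower by the authors' deposited table. Pprc1, the third member of that coactivator family, was 1.65-fold higher (log2 fold change 0.72, adjusted p = 0.00015) by the authors' deposited table, and the GABP subunit genes Gabpa and Gabpb1 were higher at 0.41 and 0.36. Tfam, which packages mitochondrial DNA, had a log2 change of 0.14 (adjusted p = 0.46) by the authors' deposited table.

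Carrier precursors are handed from the receptor TOM70 through small TIM chaperones to the TIM22 complex, which inserts them into the inner membrane. In this import list 2 of 9 genes with a p were higher and 0 lower, Timm13 at 0.33 and Timm8a1 at 0.86 by the authors' deposited table. Tomm70a at 0.01 (adjusted p = 0.97) and Timm22 at 0.10 (adjusted p = 0.62) did not pass by the authors' deposited table. Of the outer membrane porins and the pyruvate carrier, Vdac3 was higher at 0.34, whereas Vdac1 at -0.18, Mpc1 at -0.06 and Mpc2 at -0.09 did not pass by the authors' deposited table.

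In the calcium uniporter list 3 of 7 genes were higher and 1 lower. Smdt1, the EMRE subunit, was higher at 0.55 and the gatekeeper gene Micu2 at 0.60 by the authors' deposited table. Ccdc109b, the older symbol of Mcub, was higher at 0.62 by the authors' deposited table. Micu3, a relative of Micu2 known from neurons, was lower at -0.64 by the authors' deposited table. The pore gene Mcu at 0.23 (adjusted p = 0.1) did not pass by the authors' deposited table.

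Enzymes of the malate-aspartate shuttle were split, with Mdh2 higher at 0.28 and Got1 lower at -0.58 by the authors' deposited table. The TCA cycle list had 4 of 18 higher and 1 lower, with citrate synthase (Cs) at 0.35, Dlst at 0.37 and Idh3g lower at -0.26 by the authors' deposited table. Fission and fusion genes were called in 2 of 10, the protease gene Oma1 higher at 0.50 and the fission factor gene Mff lower at -0.24 by the authors' deposited table. In the list of iron-sulfur cluster and heme synthesis, 3 of 19 were higher and 2 lower. Alas1, the first enzyme of heme synthesis, was higher at 0.56 and Alad at 0.36, while Uros at -0.50 and Cpox at -0.63 were lower by the authors' deposited table.

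**Figure D3:**
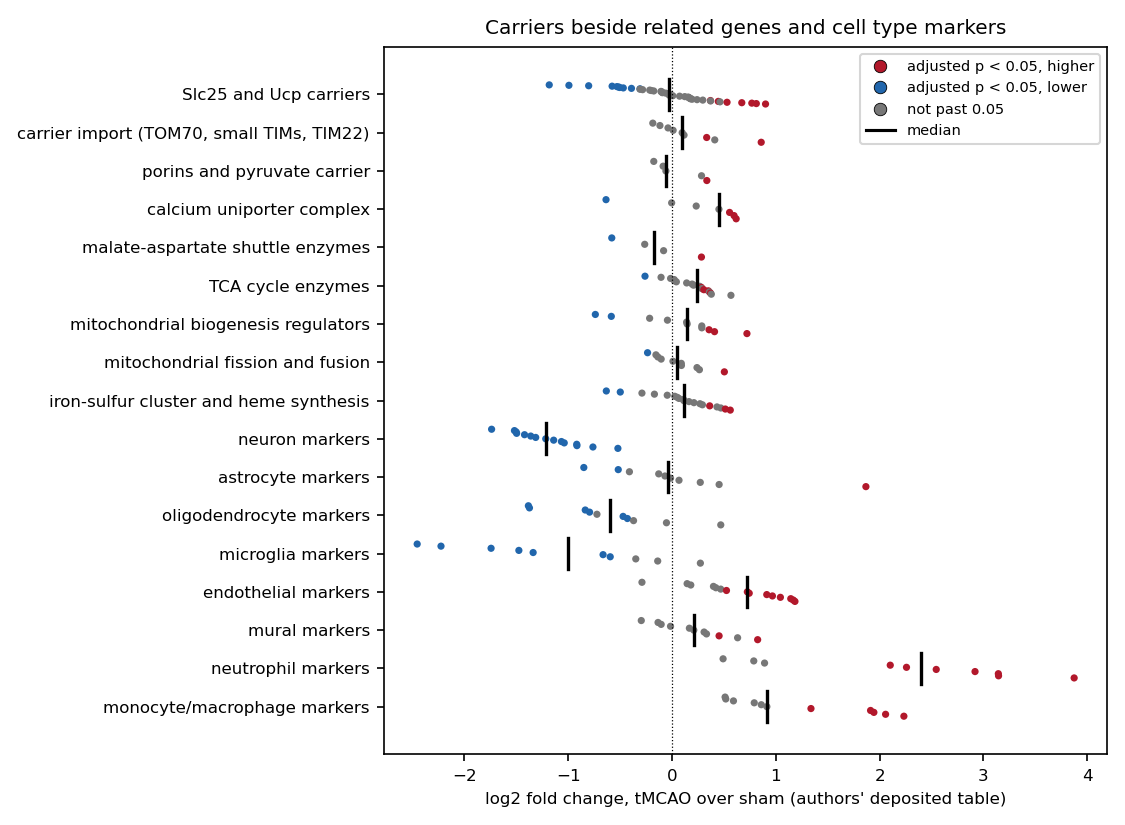
Each point is a gene with a deposited p, placed by its log2 fold change (horizontal axis, tMCAO over sham) in the carrier family, the 8 related lists and 8 lists of cell type markers; black bars are medians, red and blue points passed an adjusted p of 0.05. The carriers centre on -0.02, while neuron markers centre on -1.22 and neutrophil markers on 2.40.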

How the data were processed

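Libraries were made from rRNA-depleted total RNA of brain microvessels, according to the labels. Per the submitters' processing notes, the software comprised DESeq2, HTSeq, STAR, cutadapt and bcl2fastq 2.19 on the build GRCm38 (mm10); roles and options are not stated. The authors deposited a log2 fold change for 31616 of 48404 genes and a p-value for 19294 of them; 0 columns hold values per library, so depth is unknown. The deposited p-value was read as adjusted because 3214 values are shared by several genes. The raw p was recovered as the value times its last rank over the number of tests, and its normal deviate gave the implied standard error (family median 0.16, range 0.096 to 0.44; all genes 0.22). Calls used all 19294 genes. Deposited fold changes may have been shrunken, which would affect folds and errors.

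The members and lists were chosen with earlier results of these data known. Every carrier could be named, though a few genes counted in the totals are not reported here; from related lists, up to 3 genes in each direction with the smallest p and fixed genes were named. Older symbols were matched through RefSeq; Timm10b, carried by several gene IDs, was left out. Python 3.11.15, pandas 2.3.3, scipy 1.17.1 and biopython 1.88 were used, with GENCODE M21 for positions. Alternatives changed the threshold, the reading and adjustment of p, the centre and a minimum fold.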

Additional observations from a re-analysis of the deposited data

How the results depend on the processing

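The carrier counts, 7 higher and 10 lower, moved most with the stringency of the p. They were 2 and 5 at an adjusted p of 0.01, 3 and 6 if the deposited p is unadjusted, and 2 and 2 with the Benjamini-Yekutieli adjustment. The share of all genes called fell too, from 32.8% to 21.9% at 0.01 and to 22.4% if the p is unadjusted. That share with the Benjamini-Yekutieli adjustment is not given here. The counts of related genes, 17 higher and 8 lower, were 5 and 4, 5 and 4, and 2 and 3 under the same settings, 8 and 5 with a minimum log2 change of 0.5 in either direction, and 10 higher when centred on protein-coding genes. Slc25a14, Slc25a34, Slc25a30 and Slc25a5 were the 4 of 17 called carriers that passed under all 7 alternatives. Centring on protein-coding genes (0.05) left 41 of 45 carriers with the same result; Slc25a1 and Slc25a39 were no longer called, and Slc25a36 and Slc25a53 were. Centring on the best measured genes (-0.01) or adjusting over protein-coding genes changed none of the 45. The median distance from a carrier's value to its interval's end, 0.32, was 0.27 with a t distribution of 6 degrees of freedom and 0.41 if the p is unadjusted. Leaving out a library was not run, since no values per library were analysed. No paired analysis was possible because the sham and tMCAO libraries share no replicate numbers and the table holds no values per library. Depth per library is unknown.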
